A study of Rattus norvegicus with 12 samples.

Results

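The adrenergic receptors were followed in the dorsal striatum of lesioned rats, probe by probe, as 8 member genes out of 35623 distinct gene names on the array. Members were the probes whose gene name was Adra1a, Adra1b, Adra1d, Adra2a, Adra2b, Adra2c, Adrb1 or Adrb3, and those whose description named one of these receptor genes. There were 12 such probes, each present as a single spot, and 2 of them were found by description only. RNA from 12 male rats, 3 in each of 4 groups, was hybridised to single-colour Agilent arrays, and every rat had an array of its own.

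All 12 rats, those of the 6-OHDA group included, carried a lesion made by injecting 9 µg of 6-OHDA (6-hydroxydopamine), a toxin of catecholamine neurons, on the left side into the substantia nigra. The 6-OHDA group had no later treatment. Rats of the HFS group had the subthalamic nucleus on the lesioned side stimulated through an implanted electrode (130 Hz, 80 µs pulse width, 60 µA) over 5 days. L-DOPA at 25 mg/kg was injected into the DOPA group together with benserazide at 12.5 mg/kg, 2 times a day for 19 days. Rats of the DOPA/HFS group had both treatments, with the stimulation in the last 5 of these days. Of these groups, the methods describe electrode implantation for HFS and DOPA/HFS alone. Electrode surgery and stimulation therefore cannot be told apart here, and effects of stimulation named below include those of the implant. No unlesioned rat was analysed here, so nothing below measures the lesion itself, and the striatum came as tissue punches pooled per rat, with all of its cell types. In such tissue fewer cells of a type and less RNA per cell cannot be told apart.

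Adrenergic receptors are the G protein-coupled receptors of noradrenaline and adrenaline. The α1 receptors (Adra1a, Adra1b, Adra1d) act through Gq and phospholipase C, the α2 receptors (Adra2a, Adra2b, Adra2c) through Gi and Go against adenylyl cyclase, and the β receptors (Adrb1, Adrb3) through Gs to raise cyclic AMP. The striatum receives little noradrenaline compared with the cortex, and the α2C receptor is known as an abundant α2 receptor of its projection neurons.

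The upstream sequences of the members were read from the RefSeq promoter table of the rat assembly GRCr8, which matched 6 of the 8 genes. Those of Adrb1 and Adra2b are shown because the probes of these genes gave the differences described first below and because the paired probes of each gave different pictures. Each is the 250 bases before the annotated start, 5′ to 3′ on the plus strand, with matches to the searched motifs in capitals. Adrb1 lies at chr1:265776853-265777102 and Adra2b at chr3:135038231-135038480.
Adrb1: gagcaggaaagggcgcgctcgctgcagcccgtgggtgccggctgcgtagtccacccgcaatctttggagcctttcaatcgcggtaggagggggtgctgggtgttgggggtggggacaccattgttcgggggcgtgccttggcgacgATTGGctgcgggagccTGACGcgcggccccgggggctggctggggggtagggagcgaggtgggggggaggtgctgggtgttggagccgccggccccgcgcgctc
Adra2b: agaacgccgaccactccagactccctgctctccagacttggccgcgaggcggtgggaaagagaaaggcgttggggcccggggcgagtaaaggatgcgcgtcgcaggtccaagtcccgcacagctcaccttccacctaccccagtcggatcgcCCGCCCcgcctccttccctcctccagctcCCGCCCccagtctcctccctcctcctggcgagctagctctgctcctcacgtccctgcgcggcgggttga

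The motifs searched on both strands were the GC box GGGCGG, the cyclic AMP response element TGACGTCA and its half-site TGACG (every full element holds the half-site), the TATA box TATAAA and the CCAAT box CCAAT. The Adrb1 window held 1 CCAAT box, read as ATTGG, and 1 half-site TGACG. The Adra2b window held 2 GC boxes, read as CCGCCC, and so did that of Adra2c. No searched motif was found in the windows of Adra1b, Adra1d and Adra2a. Over the 33465 promoters of the table, windows of the same length held the CCAAT box in 34.0%, the GC box in 30.5%, the half-site in 18.2%, the TATA box in 12.9% and the full element in 1.59%, so none of the matches sets these genes apart. The 6 windows were rich in G and C, from 64.0% in Adra1d to 80.4% in Adra2c, against a median of 51.2% over all promoters. A match is a run of letters and no evidence of a bound site.

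The tissue carried striatal markers on every array. All 10 listed genes of striatal projection neurons passed the filter on dim probes, with Drd1 between 10.27 and 10.98 and Drd2 between 10.85 and 11.98 in log2 signal. Between 50.5% and 63.24% of the spots of an array were well above background. The third DOPA/HFS array stood apart with 4175 outlier spots, against 2 to 25 on the other arrays, and 4 member probes have no value there for this reason. Markers of the choroid plexus, a tissue that lies within the ventricles, differed between the groups. The summed signal of its 5 marker genes measured on all 12 arrays (9 were listed, and 6 passed the filter) was 256 to 386 in the 6-OHDA group, 4248 to 88100 in the HFS group, 222 to 16270 in the DOPA group and 269 to 881 in the DOPA/HFS group. Arrays with the same replicate number shared a slide, so that each of the 3 slides carried all 4 groups.

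Of the 12 member probes, 10 were well above background on enough arrays to be tested (a share of at least 0.4 of the 12), from 6 of the 8 genes. Adrb3, the β3 receptor best known from fat tissue, stayed below the well-above-background limit on all 12 arrays, with log2 signals from 2.69 to 3.64. Adra1a was well above background on the third HFS array only, where it read 4.68, and its other 11 values lay near 2.5. These 2 genes were therefore not compared between groups.

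**Figure D1:**
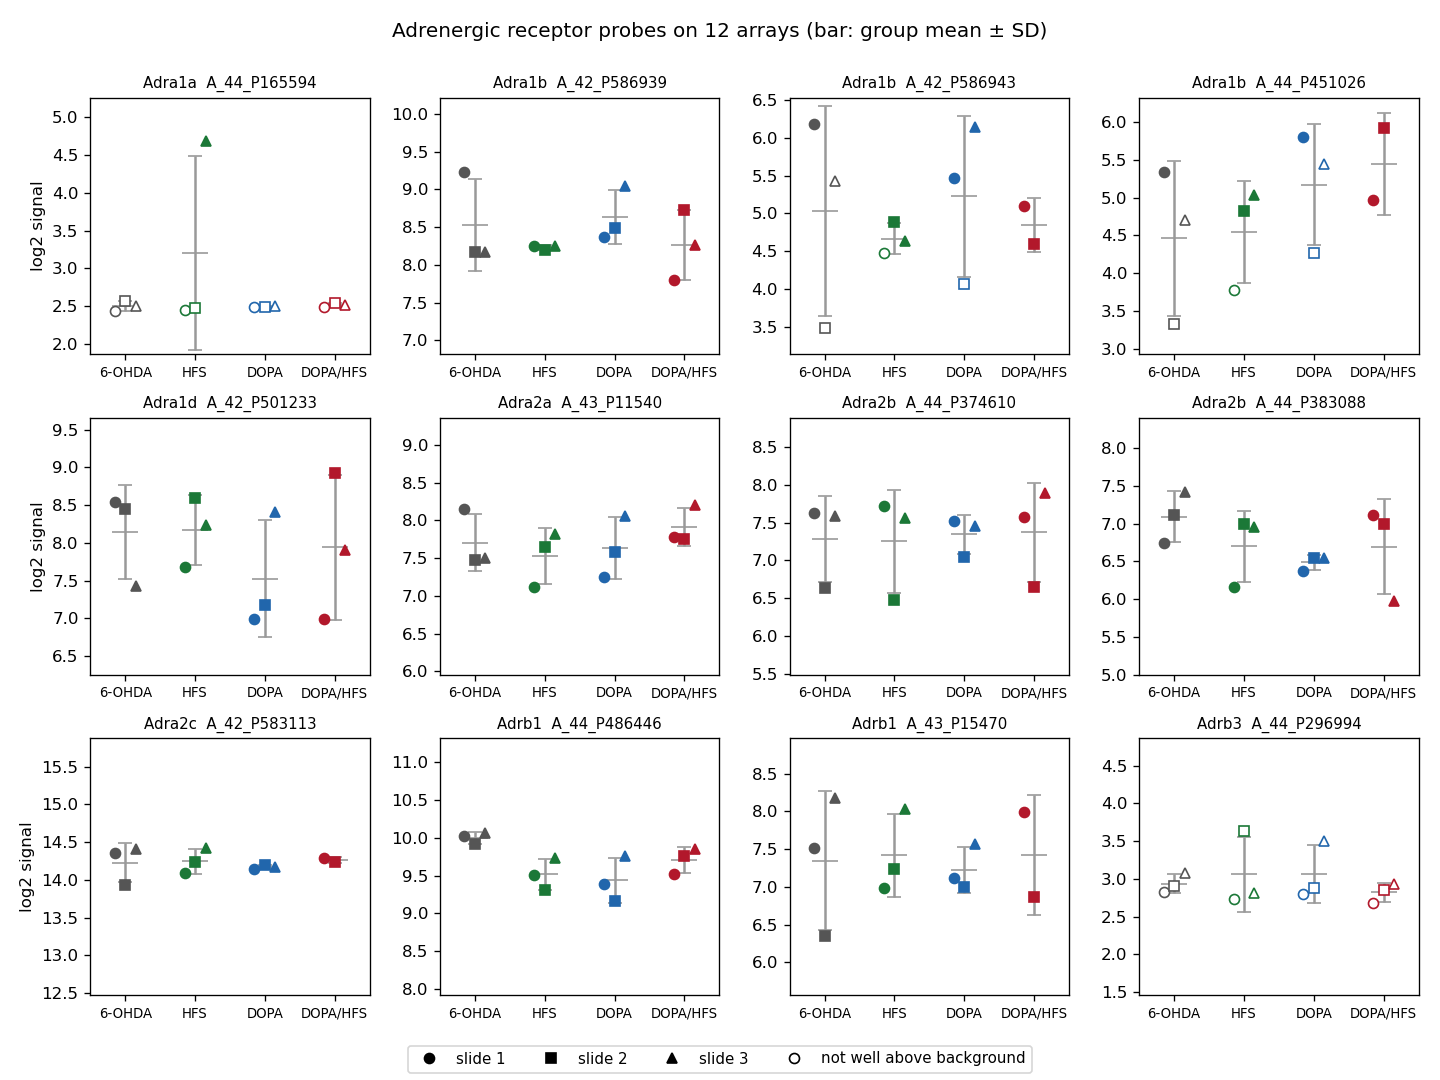
Log2 signal (vertical axis, of equal height in every panel) of the 12 adrenergic receptor probes by group, 1 point per array, with the marker shape giving the slide, open points not well above background, and bars for the group mean ± SD (n = 3, or 2 where an outlier spot was left out). The 3 arrays of the 6-OHDA group lie above all treated arrays for Adrb1 A_44_P486446, and the slide 2 arrays lie lowest in every group for Adra2b A_44_P374610.

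No adrenergic receptor probe passed the limits of the test, an adjusted p under 0.1 in limma with a fold over 1.2 or under 0.8, in any of the 6 comparisons. Of all 24318 probes tested, 0% passed in the HFS group against 6-OHDA and 0.00411% (1 probe) in the DOPA group. The share was 0% for DOPA/HFS against 6-OHDA, against DOPA and against HFS, and 0% for the interaction of both treatments, so a count of 0 members is read against a background at or near 0. At an unadjusted limma p under 0.05, 1 of 10 member probes was reached in the HFS group against 6-OHDA, where 2.23% of all probes were. In the DOPA group 1 of 10 was reached against 2.49% of all probes, and in the DOPA/HFS group 0 of 10 against 2.67%. Between DOPA/HFS and DOPA the count was 0 of 10 with 3.81% of all probes, and between DOPA/HFS and HFS it was 0 of 10 with 2.45%. For the interaction it was 1 of 10 with 1.99%. In each of the 3 comparisons with such a probe it was the same one, a probe of Adrb1. With the slide as a block the counts were again 1, 1, 0, 0, 0 and 1 of 10 in this order of comparisons, against 3.04%, 2.9%, 4.84%, 5.75%, 3.22% and 2.62% of all probes.

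The median difference of the 10 member probes was -0.10 in the HFS group, -0.07 in the DOPA group and -0.08 in the DOPA/HFS group, on the log2 scale, against medians of 0.0184, -0.0027 and -0.0025 over all probes tested. The 3 comparisons use the same 6-OHDA arrays. The 95% intervals of single member probes reached from 0.36 to 1.64 log2 units to either side of the estimate over these 3 comparisons, so that differences inside them could not be seen with 3 arrays a group.

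Adrb1, which encodes the β1 receptor, gave the clearest separation of the groups, and only with 1 of its 2 probes. On the probe named by description, A_44_P486446, the log2 signal was 10.02, 9.91 and 10.07 on the 6-OHDA arrays and 9.50, 9.31 and 9.73 on the HFS arrays. It was 9.38, 9.16 and 9.76 on the DOPA arrays and 9.52, 9.76 and 9.85 on the DOPA/HFS arrays. All 9 treated arrays lay below the lowest of the 6-OHDA arrays. The 3 treated groups overlapped among themselves.

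The HFS group differed from 6-OHDA by -0.49 on the log2 scale (SE 0.18, 95% interval -0.88 to -0.09, 0.71-fold), with an unadjusted limma p of 0.0209, an adjusted p of 0.999 and an exact two-sided permutation p of 0.1. For DOPA against 6-OHDA the difference was -0.56 (SE 0.18, interval -0.96 to -0.17, 0.68-fold, limma p = 0.00957, adjusted p = 1, exact permutation p = 0.1). For DOPA/HFS it was -0.29 (SE 0.18, interval -0.69 to 0.10, 0.82-fold, limma p = 0.133, adjusted p = 0.9997, exact permutation p = 0.1). None of the 3 therefore holds against the number of probes tested. An exact p of 0.1 is the smallest that 3 arrays against 3 allow. Groups did not overlap, in either direction, for 4.95% of all probes in the HFS comparison, 6.09% in the DOPA comparison and 4.11% in the DOPA/HFS comparison, and among the 10 member probes this was so for 1, 2 and 1. Between DOPA/HFS and HFS it was so for 6.34% of all probes and 0 member probes.

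Within slides the differences of this Adrb1 probe from 6-OHDA kept their sign. HFS minus 6-OHDA was -0.52, -0.60 and -0.34 on slides 1, 2 and 3. DOPA minus 6-OHDA was -0.64, -0.75 and -0.31, and DOPA/HFS minus 6-OHDA was -0.50, -0.15 and -0.22. With the slide as a block the unadjusted limma p was under 0.05 for HFS and DOPA and not for DOPA/HFS, and the lowest adjusted p of the 3 was 0.987. Groups kept the same place on every slide, so place and group cannot be told apart.

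In the order of group means, 6-OHDA (10.00 ± 0.08, SD, n = 3) came above DOPA/HFS (9.71 ± 0.17), HFS (9.51 ± 0.21) and DOPA (9.44 ± 0.30). The last 3 do not differ beyond their spread. DOPA/HFS stood above DOPA by 0.27 (interval -0.13 to 0.67, limma p = 0.161, adjusted p = 1, exact permutation p = 0.3), and above HFS by 0.19 (interval -0.20 to 0.59, limma p = 0.307, adjusted p = 0.9999, exact permutation p = 0.2). The interaction, that is the effect of stimulation with L-DOPA minus its effect without, was 0.76 (SE 0.26, interval 0.20 to 1.32, limma adjusted p = 1), with an unadjusted p under 0.05. Without L-DOPA the stimulated array was the lower one on all 3 slides. With L-DOPA it was the higher one on slides 1 and 2, by 0.13 and 0.59, while its sign on slide 3 depended on the processing of the third DOPA/HFS array, the one with 4175 outlier spots. DOPA/HFS minus DOPA was 0.09 there with outlier spots left out, -0.38 with them kept, -0.38 under scaling to the 75th percentile and -0.29 in the deposited table. Under these 3 alternatives DOPA/HFS minus 6-OHDA was larger in size, at -0.44, -0.46 and -0.42, with an unadjusted limma p under 0.05 and a lowest adjusted p of 0.866. DOPA/HFS minus DOPA was then 0.12, 0.11 and 0.18, and DOPA/HFS minus HFS 0.04, 0.04 and 0.03, so the place of DOPA/HFS in the order is not settled. All 9 treated arrays stayed below the 6-OHDA arrays under each of them.

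**Figure D2:**
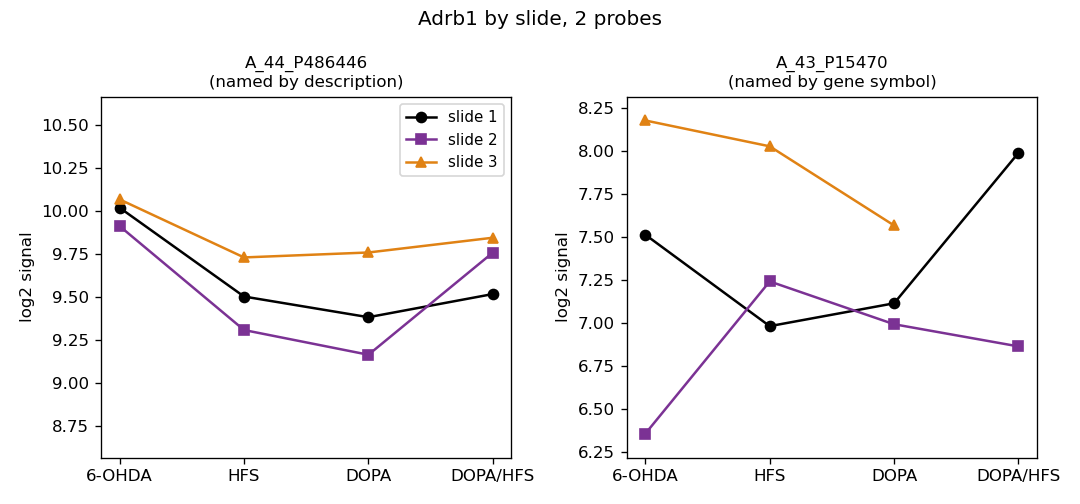
Log2 signal of both Adrb1 probes (vertical axes, of equal height) in the 4 groups, with 1 line per slide joining the arrays that share it. On A_44_P486446 every line starts at its highest point in the 6-OHDA group, whereas on A_43_P15470 the slide 2 line starts at its lowest point, 6.35.

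The other Adrb1 probe, A_43_P15470, which carries the gene symbol, showed no such order. Its log2 signal was 7.51, 6.35 and 8.18 in the 6-OHDA group, 6.98, 7.24 and 8.03 in the HFS group, 7.11, 6.99 and 7.57 in the DOPA group, and 7.99 and 6.86 on the DOPA/HFS arrays with a value. The groups overlapped throughout. Differences from 6-OHDA were 0.07 (interval -0.98 to 1.11) in HFS, -0.12 (interval -1.17 to 0.92) in DOPA and 0.08 (interval -1.09 to 1.24, with 2 DOPA/HFS arrays) in DOPA/HFS. These intervals hold the estimates of the first probe. Over the 11 arrays with both values the probes had a Pearson r of 0.25 (permutation p = 0.461, adjusted p over 5 probe pairs 0.461) and a Spearman rho of 0.27 (permutation p = 0.42, adjusted p = 0.42). Without the 2 arrays farthest from the median of the first probe, r was 0.14, and with the mean of each slide removed it was -0.16.

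Choroid plexus markers were higher in the HFS arrays than in the 6-OHDA arrays, as given above. All 6 tested genes of the list were under an unadjusted limma p of 0.05 in that comparison, and 0 were called. In DOPA/HFS against HFS 5 of the 6 were under it with lower signal, where 2.45% of all probes were, and 0 were called. All HFS arrays, with higher sums than the 6-OHDA arrays, also had lower signals on Adrb1 A_44_P486446. Values of single arrays are given as description only. The first DOPA array had a choroid plexus sum of 222, below the 3 arrays of the 6-OHDA group, and an Adrb1 A_44_P486446 signal of 9.38, also below them. The third DOPA/HFS array, with a sum of 269, read 9.85. Within the HFS group the sums were 88100, 4248 and 44180, and the array with the smallest sum had the lowest Adrb1 signal. Of the thalamic markers, 4 of 6 listed were tested and 0 were called. Only Prkcd had an unadjusted limma p under 0.05 against 6-OHDA, with differences of -0.61 in HFS and 0.81 in DOPA. The summed signal of the 4 was 5283 to 7036 in 6-OHDA, 3984 to 4909 in HFS, 8074 to 10130 in DOPA and 6008 to 8544 in DOPA/HFS. Their mean log2 signal, in which each gene counts equally, overlapped between 6-OHDA (8.56 to 8.82) and both HFS (7.89 to 8.89) and DOPA (8.72 to 9.31), so the separation in the sum was not one of the whole list. The part of choroid plexus or thalamic tissue in the Adrb1 result was not tested.

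**Figure D3:**
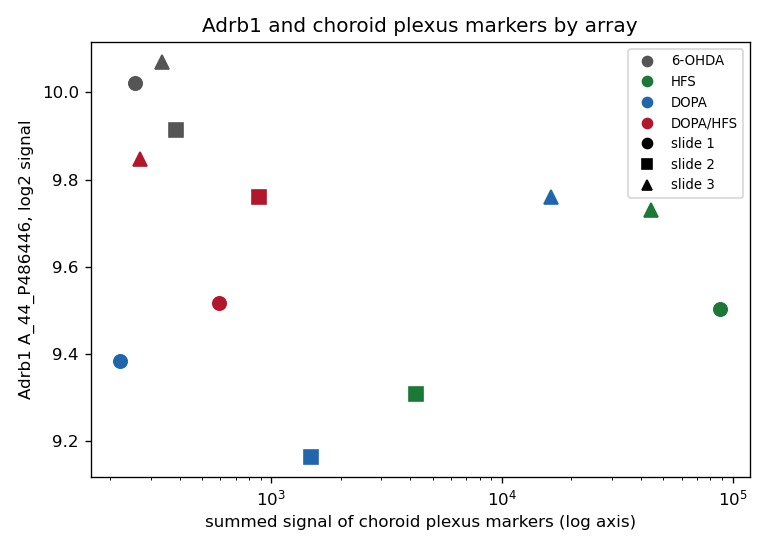
Log2 signal of Adrb1 probe A_44_P486446 (vertical axis) against the summed signal of 5 choroid plexus markers (horizontal axis, log scale) on the 12 arrays, coloured by group and shaped by slide. The first DOPA array (sum 222, Adrb1 9.38) and the 3 arrays of the 6-OHDA group (sums 256 to 386, Adrb1 9.91 to 10.07) share the left edge at different heights.

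The genes whose log2 signal followed this Adrb1 probe most closely over the 12 arrays, of 6874 named genes compared, were Cacna1b, which encodes the pore subunit of the N-type calcium channel (r = 0.782), Adgrg2, an adhesion G protein-coupled receptor (r = 0.751), and Bbc3, a BH3-only member of the Bcl2 family (r = 0.726). These correlations are descriptions over arrays that share groups and slides. Here and for the probes below, the highest of many correlations were picked and none was tested, so their size alone shows no relation.

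Among the α2 receptors, Adra2c had the steadiest signal. Its probe read 14.35, 13.93 and 14.41 on the 6-OHDA arrays, 14.09, 14.23 and 14.42 on the HFS arrays, 14.15, 14.19 and 14.17 on the DOPA arrays, and 14.29 and 14.23 on the 2 DOPA/HFS arrays with a value. All 11 values lay between 13.93 and 14.42. The difference from 6-OHDA was 0.02 (interval -0.34 to 0.38) in HFS, -0.06 (interval -0.42 to 0.30) in DOPA and 0.03 (interval -0.37 to 0.43) in DOPA/HFS, and in HFS and DOPA these were the narrowest intervals among the 10 tested probes. Over 11 arrays and 7608 named genes its signal was followed most closely by Nploc4 (r = 0.957), Egln2, an oxygen-sensing prolyl hydroxylase (r = 0.933), and Slc12a5, the neuronal potassium-chloride cotransporter (r = 0.93).

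DOPA/HFS and DOPA did not overlap for Adra2c, with a log2 difference of 0.09 (SE 0.18, limma adjusted p = 1) and an exact two-sided permutation p of 0.1, the smallest that 2 arrays against 3 allow. The groups did not overlap, in either direction, for 9.34% of all probes with 3 values in each of both groups. Separation comes more easily with 2 arrays against 3, as for Adra2c, so this share is not a like measure. The difference became -0.01 when the arrays were scaled to the 75th percentile, and the outlier spot left out on the third DOPA/HFS array read 14.05, so no direction is given.

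Adra2b was measured by 2 probes that gave different pictures. On A_44_P374610, which carries the gene symbol, slide 2 was lowest in every group: the values were 7.63, 6.63 and 7.59 in 6-OHDA, 7.72, 6.47 and 7.56 in HFS, 7.53, 7.05 and 7.46 in DOPA, and 7.57, 6.64 and 7.90 in DOPA/HFS, in the order of slides 1 to 3. The slide mean was 6.70 on slide 2 against 7.61 on slide 1 and 7.63 on slide 3. The slide took 88.1% of the sum of squares of this probe and the group 1.03%. Over the 21851 tested probes with a value on all arrays, the medians were 20.6% for the slide and 20.8% for the group, which places this probe at the 99.7th percentile for the slide.

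Group differences on this Adra2b probe were small beside the slides, at -0.03 (interval -0.92 to 0.87) in HFS, 0.06 (interval -0.83 to 0.96) in DOPA and 0.09 (interval -0.81 to 0.98) in DOPA/HFS. The genes that followed it most closely were Or2av9 (r = 0.989) and Or10ak14 (r = 0.97), both olfactory receptors, and Hrh4, the histamine H4 receptor (r = 0.971). The arrays fall into separate slides here, so these values describe mainly the step between slide 2 and the others.

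On the other Adra2b probe, A_44_P383088, which was named by description, the step was absent. It read 6.75, 7.11 and 7.42 in 6-OHDA, 6.16, 6.99 and 6.96 in HFS, 6.38, 6.55 and 6.55 in DOPA, and 7.12, 6.99 and 5.98 in DOPA/HFS. The DOPA arrays all lay below the 6-OHDA arrays, while the other treated groups overlapped with 6-OHDA. The DOPA difference was -0.60 (SE 0.32, interval -1.3 to 0.10, 0.66-fold, limma p = 0.0841, adjusted p = 1, exact two-sided permutation p = 0.1), and within slides 1, 2 and 3 it was -0.37, -0.57 and -0.87. It was -0.31 with normexp background correction and -0.33 in the deposited table. HFS differed from 6-OHDA by -0.39 (interval -1.09 to 0.31) and DOPA/HFS by -0.40 (interval -1.09 to 0.30). Since slide 2 stands apart on one of the probes, their relation was taken over the 8 arrays of slides 1 and 3, where Pearson r was -0.55 (exact permutation p = 0.155, adjusted p over 5 probe pairs 0.258) and Spearman rho -0.33 (exact permutation p = 0.428, adjusted p = 0.428). It rests on 2 arrays, since r was 0.55 without the 2 farthest from the median of the first probe. With the slide means removed, r over the 12 arrays was -0.56.

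Adra2a, the α2A receptor, read 8.15, 7.47 and 7.50 in 6-OHDA, 7.11, 7.65 and 7.81 in HFS, 7.25, 7.58 and 8.06 in DOPA, and 7.78, 7.75 and 8.20 in DOPA/HFS. The groups overlapped in every comparison. Differences from 6-OHDA were -0.18 (interval -0.78 to 0.42), -0.08 (interval -0.67 to 0.52) and 0.20 (interval -0.39 to 0.80) in HFS, DOPA and DOPA/HFS. On slide 1 all 3 were negative, at -1.03, -0.90 and -0.36, and on slides 2 and 3 all were positive, between 0.11 and 0.69. The 0.69 was that of DOPA/HFS on slide 3, whose array read 7.63 with outlier spots kept instead of 8.20. Over the alternatives the DOPA/HFS difference ran from -0.0038 to 0.42. Its nearest genes were Sstr3, a somatostatin receptor (r = 0.883), Arhgap15 (r = 0.859) and Rtn4r, the Nogo receptor (r = 0.826).

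**Figure D4:**
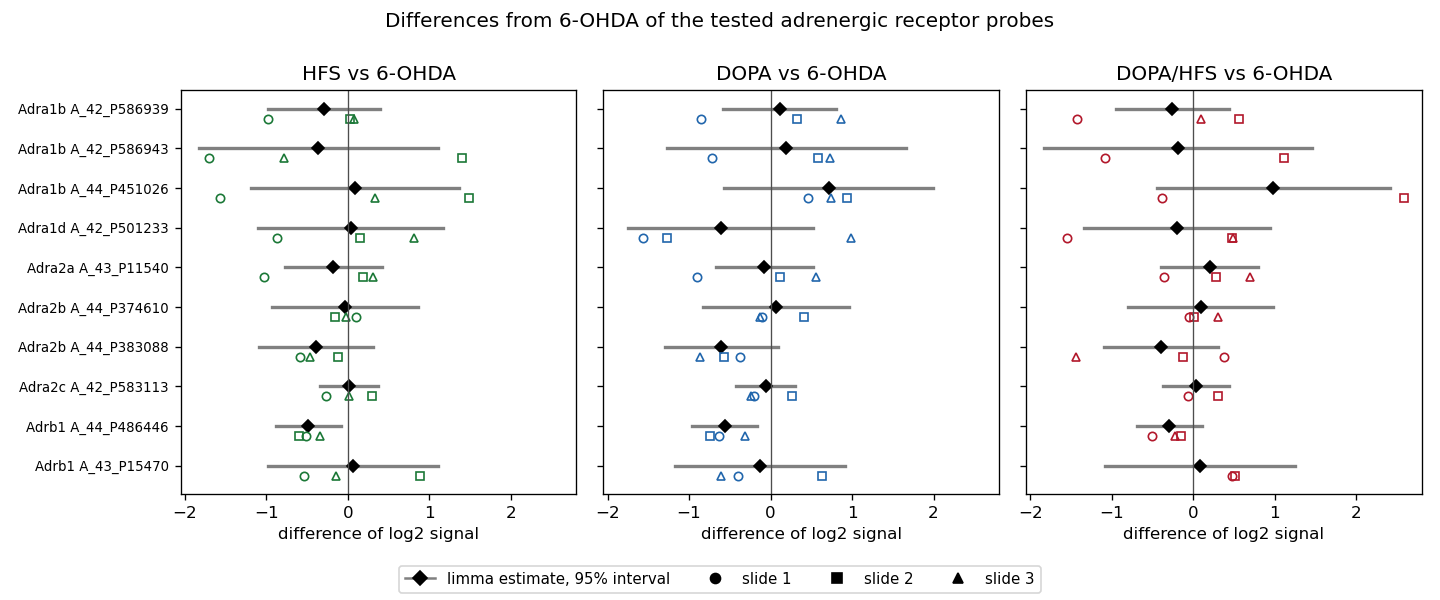
Differences of log2 signal from 6-OHDA (horizontal axes) of the 10 tested adrenergic receptor probes in the 3 treated groups, with diamonds for the limma estimate, lines for its 95% interval and open symbols for the difference within each slide. Only the Adrb1 probe A_44_P486446 has an interval that leaves out 0, in the HFS (-0.88 to -0.09) and DOPA (-0.96 to -0.17) groups.

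Among the α1 receptors, Adra1b was measured by 3 probes. The brightest, A_42_P586939, read 9.23, 8.17 and 8.17 in 6-OHDA, 8.25, 8.19 and 8.25 in HFS, 8.37, 8.49 and 9.04 in DOPA, and 7.80, 8.73 and 8.27 in DOPA/HFS. The first 6-OHDA array was the highest of all 12, and the groups overlapped. Differences from 6-OHDA were -0.29 (interval -0.98 to 0.40), 0.11 (interval -0.58 to 0.80) and -0.26 (interval -0.94 to 0.43) in HFS, DOPA and DOPA/HFS, with the sign on slide 1 negative in each. Ppm1a, a protein phosphatase (r = 0.895), Ebag9 (r = 0.874) and Zfp37, a zinc finger protein (r = 0.873), followed it most closely.

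The other 2 Adra1b probes were dim. A_42_P586943 was well above background on 8 of the 12 arrays, with values from 3.48 to 6.19, and A_44_P451026 on 7, with values from 3.33 to 5.92. The member probes' largest difference from 6-OHDA, with outlier spots left out and quantile normalization, belonged to the second, 0.98 in DOPA/HFS (interval -0.45 to 2.41, limma adjusted p = 0.9997, exact permutation p = 0.4), and its groups overlapped. On the third DOPA/HFS array both had outlier spots, which read 7.39 for A_42_P586943 and 9.47 for A_44_P451026, above all values used. With the outlier spots kept that difference became 2.32 (limma adjusted p = 0.885), with normexp background correction it was 0.23 (limma adjusted p = 0.9995), and leaving out single arrays it ran from 0.42 without the second 6-OHDA array to 1.46 without the first DOPA/HFS array. Its size therefore depended on the processing and on single arrays. Over 11 arrays the dim probes had a Pearson r of 0.68 with each other (permutation p = 0.0209, adjusted p = 0.105) and a Spearman rho of 0.62 (permutation p = 0.048, adjusted p = 0.129), and r was 0.49 without the 2 arrays farthest from the median and 0.70 with the slide means removed. The bright probe had a Pearson r of 0.53 with A_42_P586943 (permutation p = 0.0921, adjusted p = 0.205) and a Spearman rho of 0.38 (permutation p = 0.247, adjusted p = 0.309). It had a Pearson r of 0.45 with A_44_P451026 (permutation p = 0.164, adjusted p = 0.205) and a Spearman rho of 0.61 (permutation p = 0.0516, adjusted p = 0.129). Without the 2 farthest arrays the first r was -0.20, so that it rests on them, and the second was 0.345. With the slide means removed they were 0.66 and 0.45.

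Adra1d, the α1D receptor, had the widest spread of the tested probes measured on all arrays. It read 8.55, 8.45 and 7.42 in 6-OHDA, 7.68, 8.60 and 8.24 in HFS, 6.99, 7.18 and 8.41 in DOPA, and 7.0, 8.92 and 7.91 in DOPA/HFS. The groups overlapped. The DOPA difference was -0.61 (SE 0.52, interval -1.75 to 0.53, limma adjusted p = 1, exact permutation p = 0.2), with -1.56 and -1.27 on slides 1 and 2 but 0.99 on slide 3. HFS differed by 0.03 (interval -1.10 to 1.17) and DOPA/HFS by -0.20 (interval -1.34 to 0.94). Crh, the corticotropin-releasing hormone gene (r = 0.842), Grp, which encodes gastrin-releasing peptide (r = 0.841), and Mtfp1 (r = 0.838) followed it most closely.

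The genes around the receptors were read from 5 lists, 48 genes in all, each by its brightest tested probe. None was called in any of the 6 comparisons. In the 3 comparisons with 6-OHDA, differences lay between -0.65 and 0.53 in HFS, between -1.03 and 0.89 in DOPA and between -0.84 and 0.69 in DOPA/HFS, with medians of 0.07, 0.01 and 0.02. HFS had 0 of the 48 genes at an unadjusted limma p under 0.05, where 2.23% of all probes were. DOPA had 3 (Th, Slc18a2 and Snx27) against 2.49% of all probes, and DOPA/HFS had 1 (Th) against 2.67%.

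The supply and clearance of noradrenaline held the larger of these differences. Of its 10 listed genes 8 were tested, and Dbh, which makes noradrenaline from dopamine, was measured by 1 probe that did not pass the filter. Th, the first enzyme of catecholamine synthesis, read 5.31, 4.38 and 5.33 in 6-OHDA, 5.33, 5.36 and 5.39 in HFS, 5.98, 5.62 and 6.07 in DOPA, and 5.53, 5.50 and 6.04 in DOPA/HFS, and was well above background on 10 arrays. Every treated array lay at or above the 6-OHDA arrays. The DOPA difference was 0.89 (SE 0.26, limma adjusted p = 1) and the DOPA/HFS difference 0.69 (SE 0.26, limma adjusted p = 0.9997). Both lean on the second 6-OHDA array, whose value of 4.38 lay below the lowest signal well above background there (5.12), and without it they were 0.57 and 0.38. They were 0.27 and 0.18 with normexp background correction, with the deposited values they were 0.28 and 0.66, and with outlier spots kept they were 0.89 and 1.2. The unadjusted limma p of the DOPA difference was 0.402 with the deposited values and 0.0913 with outlier spots kept. That of the DOPA/HFS difference was 0.0666 with the deposited values and 0.119 with normexp background correction.

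Slc18a2, the vesicular monoamine transporter, read 5.02, 5.52 and 5.73 in DOPA against 6.10, 6.50 and 6.77 in 6-OHDA (difference -1.03, SE 0.45, limma adjusted p = 1). This difference was -0.45 with normexp background correction and -0.48 in the deposited table. Its unadjusted limma p was 0.0552 with outlier spots kept. The HFS values of 5.61, 5.95 and 5.85 also lay below 6-OHDA (difference -0.65). Those of DOPA/HFS, at 6.80, 4.53 and 5.52, overlapped with 6-OHDA (difference -0.84). The probe was well above background on 11 arrays, and the lowest such signal on the third DOPA array was 5.71. Maob, a monoamine oxidase, read 10.19, 10.60 and 10.20 in HFS against 9.61, 9.92 and 9.88 in 6-OHDA (difference 0.53, SE 0.24, limma adjusted p = 0.999). The groups compared did not overlap for Slc18a2 in DOPA or for Maob in HFS. Over all probes this was so for 6.09% in the DOPA comparison and 4.95% in the HFS comparison. In this list it was so for 3 of the 8 tested genes in each of these comparisons. Between DOPA/HFS and HFS the list's lowest p was that of Slc22a3, an extraneuronal monoamine transporter (difference -0.37, limma adjusted p = 0.9999).

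The G proteins of the receptors were all tested, 13 of 13, and none reached an unadjusted limma p under 0.05 in any comparison. Their median difference from 6-OHDA was 0.11 with HFS, 0.01 with DOPA and -0.04 with DOPA/HFS. Gng7, a γ subunit abundant in striatum, had the lowest p of the list in HFS (difference 0.41, SE 0.27, limma adjusted p = 0.999), Gnaz in DOPA (-0.21, limma adjusted p = 1) and Gna11, a Gq family member, in DOPA/HFS (-0.47, limma adjusted p = 0.9997, 2 DOPA/HFS arrays). For the interaction it was Gna14 (-0.85, limma adjusted p = 1).

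Adenylyl cyclases, the enzymes that α2 and β receptors act on in opposite directions, showed small differences. Of 9 listed 6 were tested, none with an unadjusted limma p under 0.05, and the medians were 0.02 in each of the 3 comparisons with 6-OHDA. Adcy5, the main striatal cyclase, read between 15.16 and 15.78 over the 12 arrays and had the lowest p of the list in HFS (-0.19, SE 0.17, limma adjusted p = 0.999) and in DOPA/HFS (-0.13, limma adjusted p = 0.9997). In DOPA this was Adcy3 (0.18, limma adjusted p = 1).

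Phospholipase C and protein kinase A genes, 7 tested of 10 listed, likewise had none under an unadjusted limma p of 0.05. Plcb1, a phospholipase C of the Gq pathway, had the lowest p in HFS (-0.27, SE 0.17, limma adjusted p = 0.999) and Plcb4 in DOPA (0.23, SE 0.14, limma adjusted p = 1) and DOPA/HFS (0.11, limma adjusted p = 0.9997). Prkar2b, a regulatory subunit of protein kinase A, had it between DOPA/HFS and DOPA (0.17, limma adjusted p = 1).

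Receptor kinases, arrestins and binding partners, 14 tested of 17 listed, included 1 gene on which the DOPA arrays stood apart from those of 2 other groups. Snx27, a sorting nexin that returns receptors with PDZ-binding tails to the cell surface, read 10.57, 10.48 and 10.54 in DOPA against 9.98, 10.04 and 10.24 in 6-OHDA and 10.06, 10.43 and 9.74 in DOPA/HFS. The HFS arrays, at 10.48, 10.49 and 10.08, overlapped with the DOPA arrays. Over all probes, groups did not overlap for 6.09% between DOPA and 6-OHDA and for 9.34% between DOPA/HFS and DOPA. Its difference was 0.44 in DOPA against 6-OHDA (SE 0.19, limma adjusted p = 1), -0.45 in DOPA/HFS against DOPA (limma adjusted p = 1, and -0.28 without the third DOPA/HFS array) and -0.72 in the interaction (SE 0.27, limma adjusted p = 1). For DOPA against 6-OHDA the unadjusted limma p of Snx27 was 0.0378. It was 0.115 under scaling to the 75th percentile, 0.0957 in the deposited table and 0.124 with outlier spots kept. Akap5, an anchoring protein of protein kinase A that binds β receptors, had the lowest p of the list in DOPA/HFS (-0.47, SE 0.27, limma adjusted p = 0.9997).

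**Figure D5:**
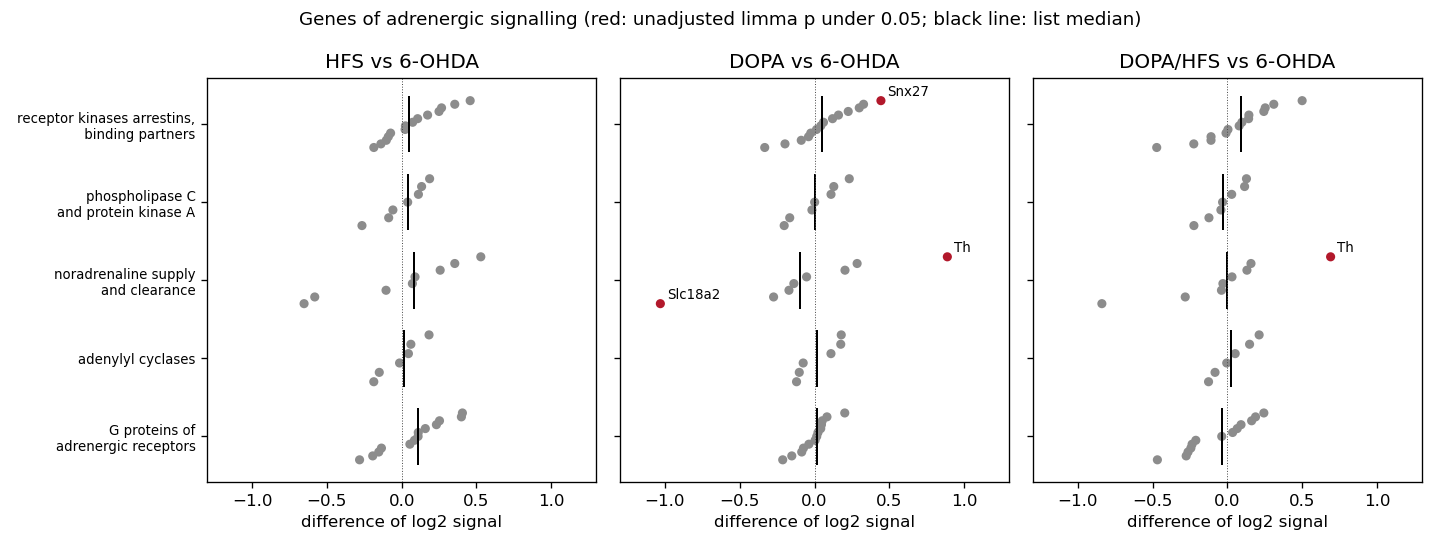
Differences of log2 signal from 6-OHDA (horizontal axes) of 48 genes of adrenergic signalling in 5 lists, 1 point per gene, in the 3 treated groups, with black lines for the list medians and red points for an unadjusted limma p under 0.05. Th (0.89) and Slc18a2 (-1.03) lie farthest from 0 in the DOPA panel, and the list medians stay between -0.10 and 0.11.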

How the data were processed

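RNA of the dorsal striatum was measured on 12 single-colour arrays. The intensity values were deposited by the authors as scanner files made with Agilent Feature Extraction 9.1, in which each spot is background-corrected on a linear scale with no scaling between arrays. The deposited log2 table was quantile normalized by the authors and served as an alternative. Other columns were not used.

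Control spots and spots marked as outliers were left out. The processed signal was taken to log2, quantile normalized and averaged per probe (41012 probes, 10735 named through GRCr8). Probes that were well above background on no less than 0.4 of the arrays were fitted in limma 3.58.1 (R 4.3.3, data.table (1.17.8), jsonlite 2.0.0) with 4 groups of 3 arrays, without a block as in the methods, and adjusted by Benjamini-Hochberg over all 24318. The methods' SAM and Wilcoxon tests were not run. Intervals are at 95%. The number of arrays limits the precision. Correlations between probes of a gene used 100000 permutations, or all of them with under 10 arrays. The fit was tested on simulated data.

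Every member probe is described. In the pathway lists, genes with an unadjusted p under 0.05 and the lowest p per list and comparison could be named. Dbh and Slc6a2 were named besides, for their part in noradrenaline handling. For each member the brightest probe well above background on all arrays was compared with other named genes. Members and lists, marker lists included, were chosen with earlier results of these data known. Marker lists other than those named in the report (cortical projection neurons, cholinergic interneurons, astrocytes, oligodendrocytes, microglia, endothelium, smooth muscle and pericytes, leptomeninges, ependyma) had 0 genes called by limma in any comparison and 1 under an unadjusted p of 0.05, Gbx2, a marker of cholinergic interneurons, in DOPA/HFS against 6-OHDA. The alternatives tried were other scalings and background corrections, other filters on dim probes, outlier spots kept, a replicate block, 1 probe per gene, other thresholds, fits of only the groups compared, and each array left out in turn. Those for Th, Slc18a2, Maob and Snx27, and for Adrb1 within slides, were chosen after seeing the data.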

Additional observations from a re-analysis of the deposited data

Results flagged for a closer look

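On Adrb1 probe A_44_P486446 the effect of stimulation had opposite signs without and with L-DOPA on every slide with outlier spots left out. HFS minus 6-OHDA was negative on all 3 slides (-0.52, -0.60 and -0.34), and DOPA/HFS minus DOPA was positive on all 3 (0.13, 0.59 and 0.09). The last of these rests on the third DOPA/HFS array, with 4175 outlier spots, and was -0.38 with outlier spots kept, -0.38 under scaling to the 75th percentile, -0.29 in the deposited table and 0.15 with normexp, so that the opposite signs held on 2 of 3 slides under 3 of these 4 alternatives. The interaction of 0.76 (interval 0.20 to 1.32) had a limma adjusted p of 1, without and with the slide as a block, and an unadjusted p under 0.05 in both fits, as had 1.99% and 2.62% of all probes. Scaling to the 75th percentile gave 0.61 and outlier spots kept gave 0.60, and the unadjusted p was then no longer under 0.05. The other Adrb1 probe, A_43_P15470, gave 0.13 (interval -1.43 to 1.7, limma adjusted p = 1), with 1.41 on slide 1 and -1.01 on slide 2 and no value on slide 3. Of the 6 tested choroid plexus markers, 5 had a negative interaction at an unadjusted limma p under 0.05, and 0 were called. Among them were Ttr (-10.34) and Sostdc1 (-6.29). The part of choroid plexus tissue in the Adrb1 interaction was not tested.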

How the results depend on the processing

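In none of the 23 alternatives was a member probe called in any comparison, with limma throughout. Of the 60 differences of tested member probes (10 probes in 6 comparisons), 42 changed sign in at least 1 of the 21 alternatives that alter a difference, and 18 did not. The 5 comparisons of Adrb1 A_44_P486446 and its interaction were among those that kept their sign. Leaving out single arrays, its difference ran from -0.59 to -0.38 in HFS, from -0.73 to -0.43 in DOPA, from -0.36 to -0.20 in DOPA/HFS and from 0.62 to 0.92 for the interaction. The unadjusted limma p then ran from 0.0134 to 0.0866 in HFS, from 0.00245 to 0.0467 in DOPA and from 0.00356 to 0.0360 for the interaction. In HFS it was no longer under 0.05 without the third 6-OHDA array. The DOPA/HFS difference of -0.29 became -0.46 under scaling to the 75th percentile, -0.44 with outlier spots kept and -0.42 in the deposited table (limma adjusted p from 0.866 to 0.885). DOPA/HFS minus DOPA (0.27) then became 0.11, 0.12 and 0.18, and DOPA/HFS minus HFS (0.19) became 0.04, 0.04 and 0.03. The values without the first DOPA/HFS array (-0.20) and without the second HFS array (-0.38 for HFS) were the smallest. Adra2c in DOPA/HFS against DOPA reversed from 0.09 to -0.0135 under scaling to the 75th percentile. With outlier spots kept, Adra1b A_44_P451026 moved to 2.32 against 6-OHDA, 1.60 against DOPA, 2.23 against HFS and 1.5 for the interaction. The cause was not tested. On the third DOPA/HFS array, probes without an outlier spot of their own also moved with this choice. With outlier spots kept, Adra1d read 7.33 there instead of 7.91, and Adra1b A_42_P586939 read 7.70 instead of 8.27. Adra2b read 7.32 instead of 7.90 on A_44_P374610 and 5.41 instead of 5.98 on A_44_P383088. With the replicate block, 0 member probes were called in each of the 6 comparisons. Deviations of arrays that share a number correlated by -0.32 to 0.12 for number 1, 0.05 to 0.42 for number 2 and -0.18 to 0.49 for number 3. For arrays with different numbers the range was -0.45 to 0.55. The mean was -0.01, 0.27 and 0.10 for numbers 1, 2 and 3, and -0.06 for different numbers. A pairing of the arrays by number cannot be told apart from the shared slide. Dim probes, Adra1a and Adrb3 above all, were limited by signal over background.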
